A study of Mus musculus with 18 samples.

Results

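The mRNA of 37 integrin and laminin subunit genes was followed in 18 RNA-seq libraries of mouse mammary tumour cells. The 37 genes were all those among the 24333 gene symbols shared by both count tables that are named as an integrin alpha or beta subunit or as a laminin alpha, beta or gamma chain, so a gene's name and not its level decided whether it was included. They comprise 18 integrin alpha, 8 integrin beta, 5 laminin alpha, 3 laminin beta and 3 laminin gamma genes. The libraries came from 168FARN and 67NR, both mouse mammary tumour lines described as non-metastatic, in 6 groups of 3 replicates: 168FARN WT, 168FARN *Kmt2c* KO, 168FARN *Kmt2d* KO, 67NR WT, 67NR *Kmt2c* KO and 67NR *Kmt2d* KO. *Kmt2c* and *Kmt2d* encode histone H3 lysine methyltransferases that act at enhancers. The knockouts were made with Cas9 and a pool of guide RNAs against exon 1 and were kept as sorted pools rather than single clones, so a pool can hold unedited cells. In the study's sequencing of the targeted regions, the share of mutant reads was lower for *Kmt2c* than for *Kmt2d* in each line. It was lowest in 67NR *Kmt2c* KO. The genotype label of the 168FARN controls is WT, while the table calls those columns control guide RNA. All were cultured cells, and no drug treatment is named for any group.

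Integrins are cell surface receptors made of 1 alpha and 1 beta subunit, and the pairing decides which ligand is bound: collagens, laminins, fibronectin and other arginine-glycine-aspartate (RGD) proteins, or counter-receptors on other cells. Laminins are cross-shaped trimers of an alpha, a beta and a gamma chain that form the basement membrane under epithelia. In the mammary gland, the laminin that holds *Lama3* and *Lamb3* is anchored through the *Itga6* and *Itgb4* receptor to hemidesmosomes, while receptors of *Itgav* and *Itga5* with their beta partners are known from cell migration and from wound repair.

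The summed counts per library ranged from 14359760 to 43427382 in 168FARN and from 40951775 to 79251530 in 67NR, so low counts are less precise in 168FARN. Levels are given in CPM, the count scaled to libraries of equal size over all 18 libraries. A gene was called where its adjusted p was under 0.1 and its log2 fold change beyond 0.6 in either direction. Adjusted p-values are those of edgeR (quasi-likelihood test, Benjamini-Hochberg method, over all genes tested) unless another fit is named. The labels give the replicates only a number, and the study's notes describe replicates of a line as collected a passage apart, so the p-values measure the spread between collections of the same cell pools. In 168FARN the libraries numbered 3 stood apart from those numbered 1 and 2 in every genotype, and results that rest on this are given with replicate number added to the fit as a block (the replicate block). In 67NR, replicate 3 also stood apart for some subunits, as in WT for *Itga8* (7.16, 7.83 and 1.15 CPM) and *Itga1* (5.74, 6.7 and 2.11 CPM). The factor that adjusts library size was 0.732 for 67NR *Kmt2d* KO replicate 3 and 0.972 to 1.133 for the other 67NR libraries. In whole-culture RNA, fewer cells of a kind and less mRNA per cell cannot be told apart. The edited exon is a small part of each target transcript, so target counts cannot check the labels: *Kmt2c* stood at 55.7 to 64.7 CPM for 67NR WT and at 82.9 to 92.2 CPM for 67NR *Kmt2c* KO (log2 fold change 0.63, adjusted p = 0.0067), at 45.5 to 116.9 CPM for 168FARN WT and at 48 to 98.5 CPM for 168FARN *Kmt2c* KO. *Kmt2d* stood at 84.7 to 113.8 CPM and 91 to 141.3 CPM for 67NR WT and *Kmt2d* KO, and at 106.4 to 165.1 CPM and 138.5 to 299.5 CPM in the same 168FARN groups.

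The windows upstream of the annotated starts are printed for the 4 subunit genes with the smallest p-values in 67NR *Kmt2c* KO against WT that have such a window, so that the sequences before the starts of the most firmly called genes can be read beside their values. Each holds the 250 bases before a start in RefSeq's annotation of GRCm38.p6, read 5′ to 3′ on the gene's strand, and 23 of the 37 genes matched a window. Capitals mark the E-box CACCTG or its reverse complement CAGGTG, the sequence recognised by the zinc-finger repressors of the Snail and Zeb families. The other letters were left in lower case.
Itgb6, first window, chr2:60722604-60722853, minus strand: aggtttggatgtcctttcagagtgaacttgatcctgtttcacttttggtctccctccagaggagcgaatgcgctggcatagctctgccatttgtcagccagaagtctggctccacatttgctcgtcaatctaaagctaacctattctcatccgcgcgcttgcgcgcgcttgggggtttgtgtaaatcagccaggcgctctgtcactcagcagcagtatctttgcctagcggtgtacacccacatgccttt
Itgb6, second window, chr2:60673694-60673943, minus strand: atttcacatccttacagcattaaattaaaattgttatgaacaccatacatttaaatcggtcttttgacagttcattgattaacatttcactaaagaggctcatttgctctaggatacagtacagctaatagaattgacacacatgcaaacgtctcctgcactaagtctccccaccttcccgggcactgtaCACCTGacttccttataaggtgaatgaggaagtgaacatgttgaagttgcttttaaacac
Itga5, chr15:103366792-103367041, minus strand: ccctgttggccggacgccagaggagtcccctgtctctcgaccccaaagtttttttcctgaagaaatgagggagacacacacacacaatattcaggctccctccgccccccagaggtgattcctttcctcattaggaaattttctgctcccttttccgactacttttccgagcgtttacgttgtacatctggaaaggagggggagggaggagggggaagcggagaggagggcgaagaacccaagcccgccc
Itgb7, chr15:102231936-102232185, minus strand: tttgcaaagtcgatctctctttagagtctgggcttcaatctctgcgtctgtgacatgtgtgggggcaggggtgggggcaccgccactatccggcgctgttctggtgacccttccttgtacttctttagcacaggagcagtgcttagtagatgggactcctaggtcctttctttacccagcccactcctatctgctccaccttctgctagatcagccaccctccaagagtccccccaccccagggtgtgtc
Itgb5, chr16:33829415-33829664, plus strand: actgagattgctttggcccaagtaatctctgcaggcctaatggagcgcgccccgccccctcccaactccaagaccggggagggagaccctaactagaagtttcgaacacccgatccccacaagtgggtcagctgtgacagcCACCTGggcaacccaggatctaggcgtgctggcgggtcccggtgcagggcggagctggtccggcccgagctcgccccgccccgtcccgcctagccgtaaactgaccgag
The E-box was found once in the second *Itgb6* window and once in the *Itgb5* window, and not in these letters of the other 3. Over all genes, 5657 of 32851 windows of this length held it (17.2%), against 8 of the 26 windows of the integrin and laminin genes. The AP-1 motif TGANTCA, searched on both strands and sharing no position with the E-box, was in none of the 5 printed windows, in 1 of the 26 and in 2217 of all windows (6.75%). A match describes the letters only.

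Most of the family's mRNA came from a few genes. Per kilobase of exon, which allows levels of different genes to be compared, *Itgb1*, the beta subunit shared by the largest set of receptors, stood highest of the 37 in all 6 groups, at 231 ± 3.12 CPM per kb in 168FARN WT and 231 ± 30.6 CPM per kb in 67NR WT (SD, n = 3). In 168FARN WT the next were *Lamb1* at 52.7, *Itga5* at 38 and *Lamc1* at 34.8 CPM per kb. In 67NR WT they were *Itga3* at 94.5 ± 19.6, *Itgb5* at 44.4 ± 5.57 and *Lamb1* at 34.9 CPM per kb. After knockout of *Kmt2c* in 67NR, *Itga3* (45.7 ± 12) and *Itgav* (43.1 ± 4.6) did not differ beyond their spread. At the other end, *Itgad* and *Lama1* had no count in any library, and *Itga4*, *Itga9*, *Itga11*, *Itgam* and *Itgax* stayed at or below 0.21 CPM everywhere. With low counts set aside, 22 of the 37 genes were tested in 168FARN and 29 in 67NR.

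**Figure D1:**
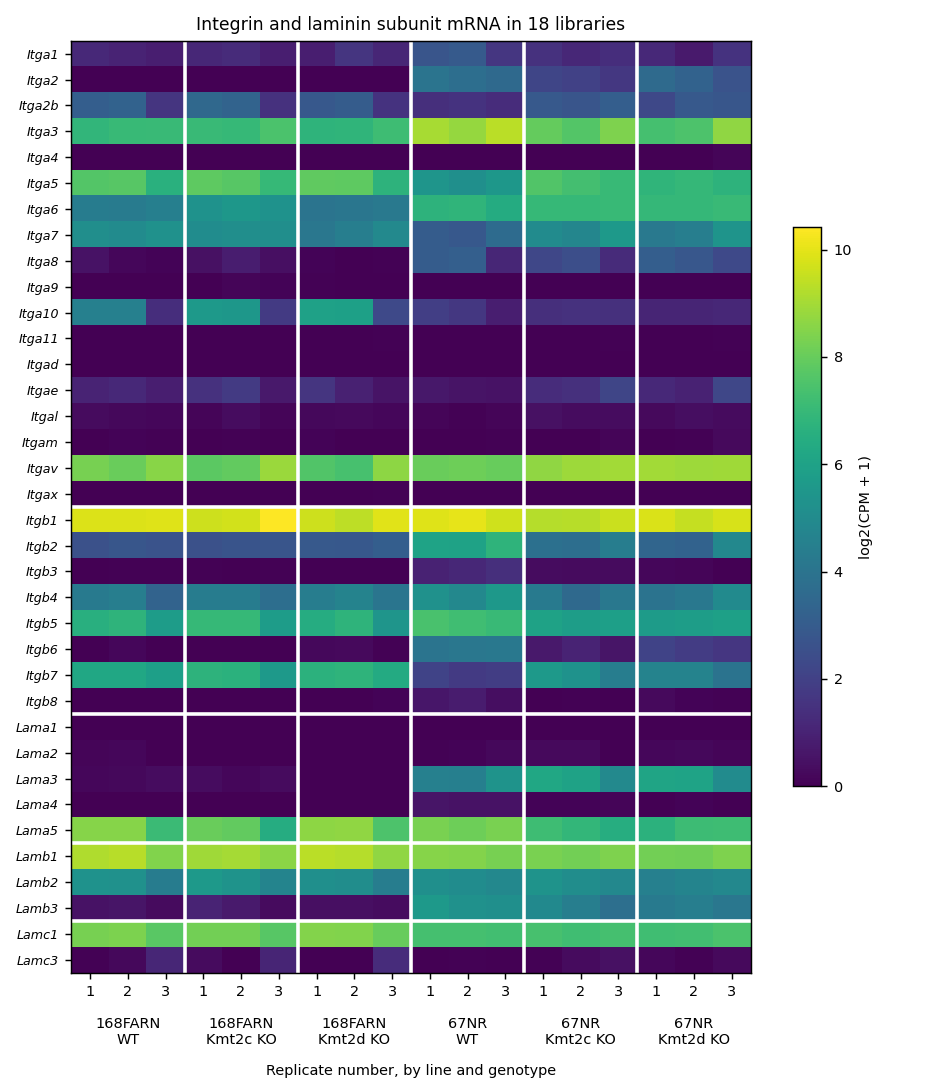
Level of 36 integrin and laminin genes (rows) in the 18 libraries (columns, by line, genotype and replicate number), as log2(CPM + 1). *Itgb1* is the brightest row throughout. *Lama3*, *Lamb3*, *Itga2* and *Itgb6* are dark in all 9 168FARN libraries.

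In 67NR, most of the subunits tested were called in each knockout, some higher and more of them lower than in WT. In *Kmt2c* KO against WT, 8 of 29 rose (27.6%) and 13 fell (44.8%), where 17.9% of all 13665 genes tested rose and 17.4% fell. In *Kmt2d* KO against WT, 7 rose (24.1%) and 11 fell (37.9%), where 13.9% of all genes rose and 11.6% fell. The median log2 fold change of the 29 was -0.42 and -0.27, against -0.017 and -0.024 over all genes. Both comparisons share the WT libraries. Under the replicate block the counts were 8 and 13 in *Kmt2c* KO and 7 and 12 in *Kmt2d* KO.

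Among the laminin chains of 67NR, the beta chain *Lamb3* (chr1:195128151-195170072, mm9), found in the laminin of hemidesmosomes, was at 47.6, 37.1 and 35.8 CPM for WT, 29.9, 21.2 and 13 CPM for *Kmt2c* KO and 18.7, 21.2 and 16.3 CPM for *Kmt2d* KO. The knockout libraries were all below the WT libraries, and *Lamb3* fell with log2 fold changes of -0.82 (adjusted p = 0.051) and -1.02 (adjusted p = 0.031). The *Kmt2c* call ended without WT replicate 1 (adjusted p = 0.14), *Kmt2c* KO replicate 2 (0.13) or 3 (0.10), and the *Kmt2d* call without WT replicate 1 (0.10).

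The alpha chain that joins *Lamb3* in this laminin went the other way. *Lama3* stood at 21.9, 21.6 and 39.4 CPM for WT, at 73.5, 63.2 and 28.7 CPM for *Kmt2c* KO and at 66.1, 64.6 and 31.7 CPM for *Kmt2d* KO. Replicates 1 and 2 of each knockout were above every WT library, whereas replicate 3 of each lay below WT replicate 3, so the groups overlapped. *Lama3* rose in *Kmt2c* KO (log2 fold change 1.08, adjusted p = 0.074), a call that ended without WT replicate 1 (adjusted p = 0.20) or 2 (0.20) or without *Kmt2c* KO replicate 1 (0.22) or 2 (0.18). In *Kmt2d* KO its log2 fold change was 1.05 (adjusted p = 0.11), not past the threshold in edgeR, while DESeq2 called it (adjusted p = 0.056). Without the libraries numbered 3, its log2 fold changes were 1.74 (adjusted p = 9.1e-10) and 1.67 (adjusted p = 2.8e-09).

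*Lama5* (chr2:179911078-179960564), the broadly expressed alpha chain of adult epithelial basement membranes, was at 316, 276 and 322 CPM for 67NR WT, 144, 119 and 88 CPM for *Kmt2c* KO and 104, 139 and 145 CPM for *Kmt2d* KO. Every knockout library lay below every WT library, with falls of 2.45-fold (adjusted p = 0.0014) and 2.24-fold (adjusted p = 0.0041). Its usual partners did not pass the test: *Lamb1* had log2 fold changes of -0.04 and -0.10, *Lamc1* of 0.08 and 0.08, and *Lamb2* of 0.17 and -0.27. *Lamc1*, for example, was at 162, 162 and 152 CPM for WT and at 165, 148 and 162 CPM for *Kmt2c* KO. The mesenchymal alpha chain *Lama4* was scarce, at 0.52, 0.41 and 0.41 CPM for WT, 0.078, 0.061 and 0.094 CPM for *Kmt2c* KO and 0, 0.074 and 0 CPM for *Kmt2d* KO. It fell in both knockouts (log2 fold changes -2.43, adjusted p = 0.048, and -3.91, adjusted p = 0.017). The *Kmt2c* call ended without WT replicate 1 (0.13) or 2 (0.10) or *Kmt2c* KO replicate 1 (0.14) or 2 (0.16), and the *Kmt2d* value became -7.70 without *Kmt2d* KO replicate 2, the only one with a count.

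Among the beta subunits, *Itgb6* (chr2:60436349-60560700), the epithelial partner of *Itgav* that activates latent TGF-beta, showed the smallest p-value of the family in *Kmt2c* KO. It was at 15.1, 16.4 and 16.8 CPM for 67NR WT, 0.639, 1.04 and 0.516 CPM for *Kmt2c* KO and 3.23, 2.61 and 2.16 CPM for *Kmt2d* KO. The 3 groups did not overlap, with WT highest and *Kmt2c* KO lowest. It fell 20.6-fold in *Kmt2c* KO (log2 fold change -4.36, SE 0.32, adjusted p = 1.5e-05) and 5.71-fold in *Kmt2d* KO (-2.51, SE 0.29, adjusted p = 0.00034).

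*Itgb5* (chr16:33829751-33949239), another partner of *Itgav* that binds vitronectin, was at 169, 147 and 132 CPM for WT, 63.5, 54.4 and 58.1 CPM for *Kmt2c* KO and 51.8, 54.1 and 60.1 CPM for *Kmt2d* KO. The WT libraries were all higher, and *Itgb5* fell 2.4-fold in *Kmt2c* KO (log2 fold change -1.27, SE 0.15, adjusted p = 2e-04), with a log2 fold change of -1.36 in *Kmt2d* KO (SE 0.15, adjusted p = 0.00023). The *Itgav* partners *Itgb3* and *Itgb8* fell from low levels. *Itgb3*, the vitronectin receptor beta subunit of platelets and osteoclasts, was at 0.969, 1.23 and 1.65 CPM for WT, 0.261, 0.244 and 0.235 CPM for *Kmt2c* KO and 0.148, 0.11 and 0 CPM for *Kmt2d* KO. It fell 13.2-fold in *Kmt2d* KO (adjusted p = 0.0082) and by 2.28 on the log2 scale in *Kmt2c* KO (adjusted p = 0.033, and 0.11 without *Kmt2c* KO replicate 2). *Itgb8* had 109 counts over the 3 WT libraries and 3 over the 3 *Kmt2c* KO libraries, a ratio of 34.2 (95% counting interval 11.4 to 168, adjusted p = 0.0066). Its fitted log2 fold change in *Kmt2c* KO moved from -4.79 to -4.17 without *Kmt2c* KO replicate 1 and to -7.90 without replicate 2, and its *Kmt2d* call (-2.24, adjusted p = 0.092) ended without WT replicate 1 or 2 or any 1 *Kmt2d* KO replicate (adjusted p 0.12 to 0.26, with a value of -2.97 without replicate 1).

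The alpha subunit they share did not fall. *Itgav* (chr2:83564554-83647073), which binds RGD ligands with each of these beta subunits, was at 261, 274 and 255 CPM for 67NR WT, 408, 476 and 504 CPM for *Kmt2c* KO and 504, 476 and 482 CPM for *Kmt2d* KO. All knockout libraries were above all WT libraries, and *Itgav* rose 1.86-fold (adjusted p = 0.00088) and 1.95-fold (adjusted p = 0.001). *Itga5* (chr15:103174720-103197194), the fibronectin receptor alpha subunit, was at 42.4, 35.6 and 45.2 CPM for WT, 194, 159 and 128 CPM for *Kmt2c* KO and 112, 120 and 107 CPM for *Kmt2d* KO. It rose 4.13-fold (log2 fold change 2.05, SE 0.19, adjusted p = 5e-05) and 2.91-fold (1.54, SE 0.18, adjusted p = 0.00043), with no overlap between knockout and WT. *Itgb1*, the beta subunit of both, was at 968, 1050 and 805 CPM for WT, 607, 630 and 758 CPM for *Kmt2c* KO and 901, 733 and 873 CPM for *Kmt2d* KO. Its log2 fold changes of -0.42 (adjusted p = 0.085) and -0.09 (adjusted p = 0.75) were under the fold threshold. Without the libraries numbered 3, *Itgb1* was called lower in *Kmt2c* KO (log2 fold change -0.62, adjusted p = 0.00028).

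**Figure D2:**
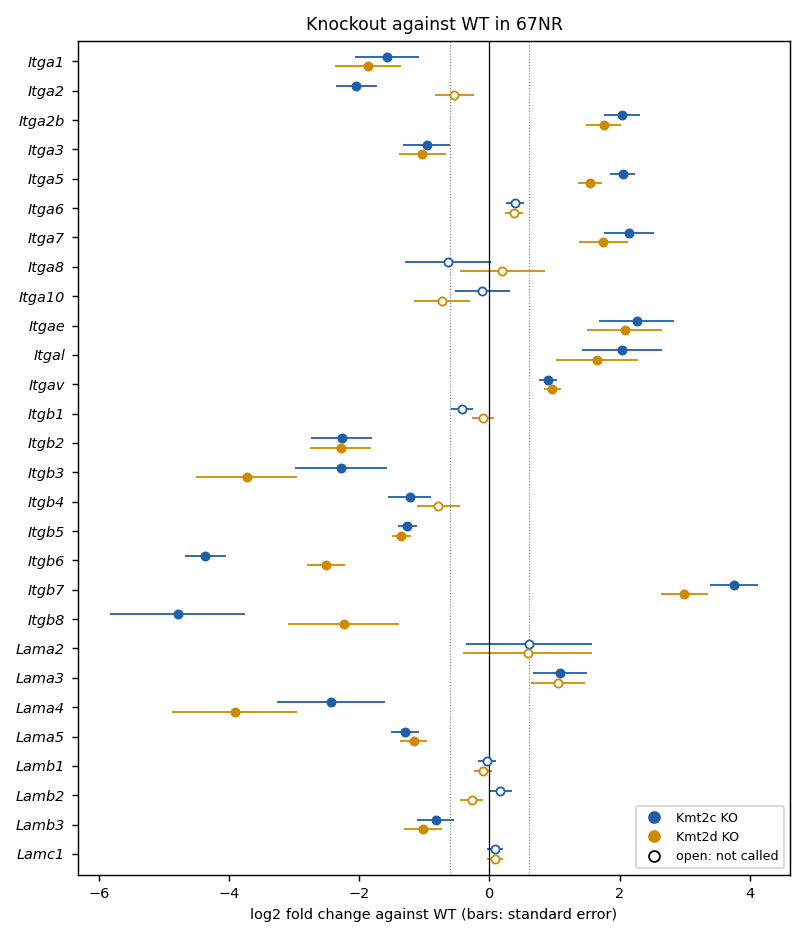
Log2 fold change against WT in 67NR (horizontal axis) of 28 of the integrin and laminin genes tested, for *Kmt2c* KO (blue) and *Kmt2d* KO (orange), with standard errors as bars, filled points for called genes and dotted lines at ±0.6. *Itgb6* lies at -4.36 and -2.51, *Itgb5* at -1.27 and -1.36, and both knockouts are set against the same WT libraries.

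The leukocyte integrin subunits did not move together. *Itgb7* (chr15:102046426-102062366), the beta subunit that pairs with *Itga4* and *Itgae* in lymphocyte homing, was at 3.31, 2.38 and 2.69 CPM for 67NR WT, 47.6, 38.8 and 20.3 CPM for *Kmt2c* KO and 24.3, 24.6 and 14.5 CPM for *Kmt2d* KO. It rose 13.5-fold (log2 fold change 3.75, SE 0.37, adjusted p = 7.7e-05) and 7.97-fold (SE 0.36, adjusted p = 0.00043), with every knockout library above every WT library. Its partner *Itgae* was at 0.591, 0.47 and 0.413 CPM for WT, 1.51, 1.71 and 3.54 CPM for *Kmt2c* KO and 1.29, 0.994 and 3.71 CPM for *Kmt2d* KO. *Itgae* rose with log2 fold changes of 2.26 (adjusted p = 0.015) and 2.08 (adjusted p = 0.03, the value falling to 1.30 without *Kmt2d* KO replicate 3), while *Itga4* had 6 counts in all 67NR libraries together. *Itgb2*, the common leukocyte beta subunit, was at 65.2, 63.1 and 110 CPM for WT, 13.6, 12.5 and 20.4 CPM for *Kmt2c* KO and 9.52, 8.71 and 28.4 CPM for *Kmt2d* KO. It fell 4.83-fold (adjusted p = 0.0052) and 4.87-fold (adjusted p = 0.0078, log2 fold change -2.28, or -3.02 without *Kmt2d* KO replicate 3), with all knockout libraries lower.

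Its alpha partner *Itgal* stayed at or below 0.391 CPM and was called higher (log2 fold changes 2.04, adjusted p = 0.031, and 1.65, adjusted p = 0.09). The *Kmt2c* call of *Itgal* ended without WT replicate 2 (adjusted p = 0.10) or *Kmt2c* KO replicate 1 (0.11), and the *Kmt2d* call ended whichever of the 6 libraries was left out (0.11 to 0.24). Of the 7 leukocyte markers, *Ptprc*, the pan-leukocyte antigen, had no count in 67NR WT and averaged 0.0258 and 0.0335 CPM for *Kmt2c* KO and *Kmt2d* KO. Of the 3 tested, *Lyz2*, encoding lysozyme, was higher in both knockouts, at a mean of 0.32 CPM for WT against 2.21 CPM (adjusted p = 0.01) and 2.62 CPM (adjusted p = 0.011). *Csf1r*, the macrophage growth factor receptor, fell in *Kmt2d* KO (1.40 to 0.058 CPM, adjusted p = 0.052; adjusted p = 0.15 in *Kmt2c* KO, or 0.066 under the replicate block), and *Cd68* was not called. The summed level of the 7 markers was 22.7 to 40.6 CPM for 67NR WT, 23.1 to 70.1 CPM for *Kmt2c* KO and 28.5 to 81.4 CPM for *Kmt2d* KO, and their part in the integrin values was not tested. The platelet integrin alpha subunit *Itga2b* was at 1.68, 1.9 and 1.52 CPM for WT, 6.45, 5.62 and 7.72 CPM for *Kmt2c* KO and 3.78, 6.55 and 5.95 CPM for *Kmt2d* KO. It rose 4.11-fold (adjusted p = 0.00049) and 3.37-fold (adjusted p = 0.0019) without overlap, where the 3 platelet markers summed to at most 0.214 CPM in any 67NR library.

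The alpha subunits that pair with *Itgb1* for laminin and collagen divided. *Itga7* (chr10:128370869-128395333), the laminin receptor of muscle, was at 7.14, 6.24 and 11.6 CPM for 67NR WT, 31.3, 26.5 and 46.8 CPM for *Kmt2c* KO and 17.6, 21.2 and 41 CPM for *Kmt2d* KO. It rose 4.43-fold (adjusted p = 0.0024) and 3.36-fold (adjusted p = 0.01), all knockout libraries being higher. *Itga3*, the laminin receptor of epithelia, was at 533, 431 and 654 CPM for WT, 250, 199 and 334 CPM for *Kmt2c* KO and 161, 181 and 412 CPM for *Kmt2d* KO. It fell by 0.97 (adjusted p = 0.066) and by 1.03 (adjusted p = 0.071) on the log2 scale, and all knockout libraries were below all WT libraries. Both calls ended without WT replicate 1 or 3 or without replicate 1 or 2 of the knockout, with adjusted p of 0.13 to 0.20 for *Kmt2c* and 0.14 to 0.22 for *Kmt2d*.

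*Itga6* and *Itgb4* form the hemidesmosome receptor. *Itga6* (chr2:71583673-71696473) was at 107, 111 and 85.1 CPM for 67NR WT, 124, 124 and 129 CPM for *Kmt2c* KO and 122, 122 and 131 CPM for *Kmt2d* KO, with log2 fold changes of 0.40 and 0.38 that were under the fold threshold. *Itgb4* was at 37.8, 28.4 and 46.4 CPM for WT, 18.1, 10.7 and 16.8 CPM for *Kmt2c* KO and 14.4, 17.1 and 30.7 CPM for *Kmt2d* KO. It fell 2.33-fold in *Kmt2c* KO (adjusted p = 0.018). In *Kmt2d* KO, where replicate 3 overlapped WT, its log2 fold change was -0.78 (adjusted p = 0.12), and under the replicate block it was -0.80 (adjusted p = 0.0083). The collagen receptor alpha subunit *Itga2* was at 15, 12.6 and 10.9 CPM for WT, 3.52, 3.04 and 2.21 CPM for *Kmt2c* KO and 11.1, 8.65 and 5.32 CPM for *Kmt2d* KO. It fell 4.13-fold in *Kmt2c* KO (adjusted p = 0.001), and in *Kmt2d* KO its log2 fold change was -0.54 (adjusted p = 0.24) with overlapping groups.

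*Itga1*, another collagen receptor subunit, was at 5.74, 6.7 and 2.11 CPM for WT, 1.8, 1.24 and 1.57 CPM for *Kmt2c* KO and 1.27, 0.663 and 1.88 CPM for *Kmt2d* KO. It fell by 1.58 (adjusted p = 0.036) and 1.86 (adjusted p = 0.027) on the log2 scale, the *Kmt2c* call ending without WT replicate 1 (0.10), WT replicate 2 (0.12) or *Kmt2c* KO replicate 2 (0.12). *Pelo*, a gene inside *Itga1* on the same strand, rose in the same libraries (log2 fold changes 1.54, adjusted p = 0.00049, and 1.14, adjusted p = 0.0041), and whether reads were shared between the genes was not tested. The genes that overlap *Itga7* and *Itgae* on the opposite strand, *Mettl7b* and *Gsg2*, had log2 fold changes between -0.24 and 0.44 in 67NR, and the sources used here do not say whether counting used strand. *Itga8*, *Itga10* and *Lama2* were not called in either 67NR knockout with all libraries. Without the libraries numbered 3, *Itga8* (log2 fold change -0.77, adjusted p = 0.0023) and *Lama2* (1.73, adjusted p = 0.099) were called in *Kmt2c* KO and *Itga10* (-1.14, adjusted p = 0.0035) in *Kmt2d* KO. *Lamc3*, below the filter of the edgeR fit in 67NR, had 0, 2 and 0 counts in WT, 4, 16 and 16 in *Kmt2c* KO and 8, 2 and 8 in *Kmt2d* KO. The ratio of *Kmt2c* KO to WT was 19.1 (95% counting interval 4.92 to 164), and DESeq2, run without that filter, called *Lamc3* higher in *Kmt2c* KO (adjusted p = 0.0098) and in *Kmt2d* KO (adjusted p = 0.054).

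**Figure D3:**
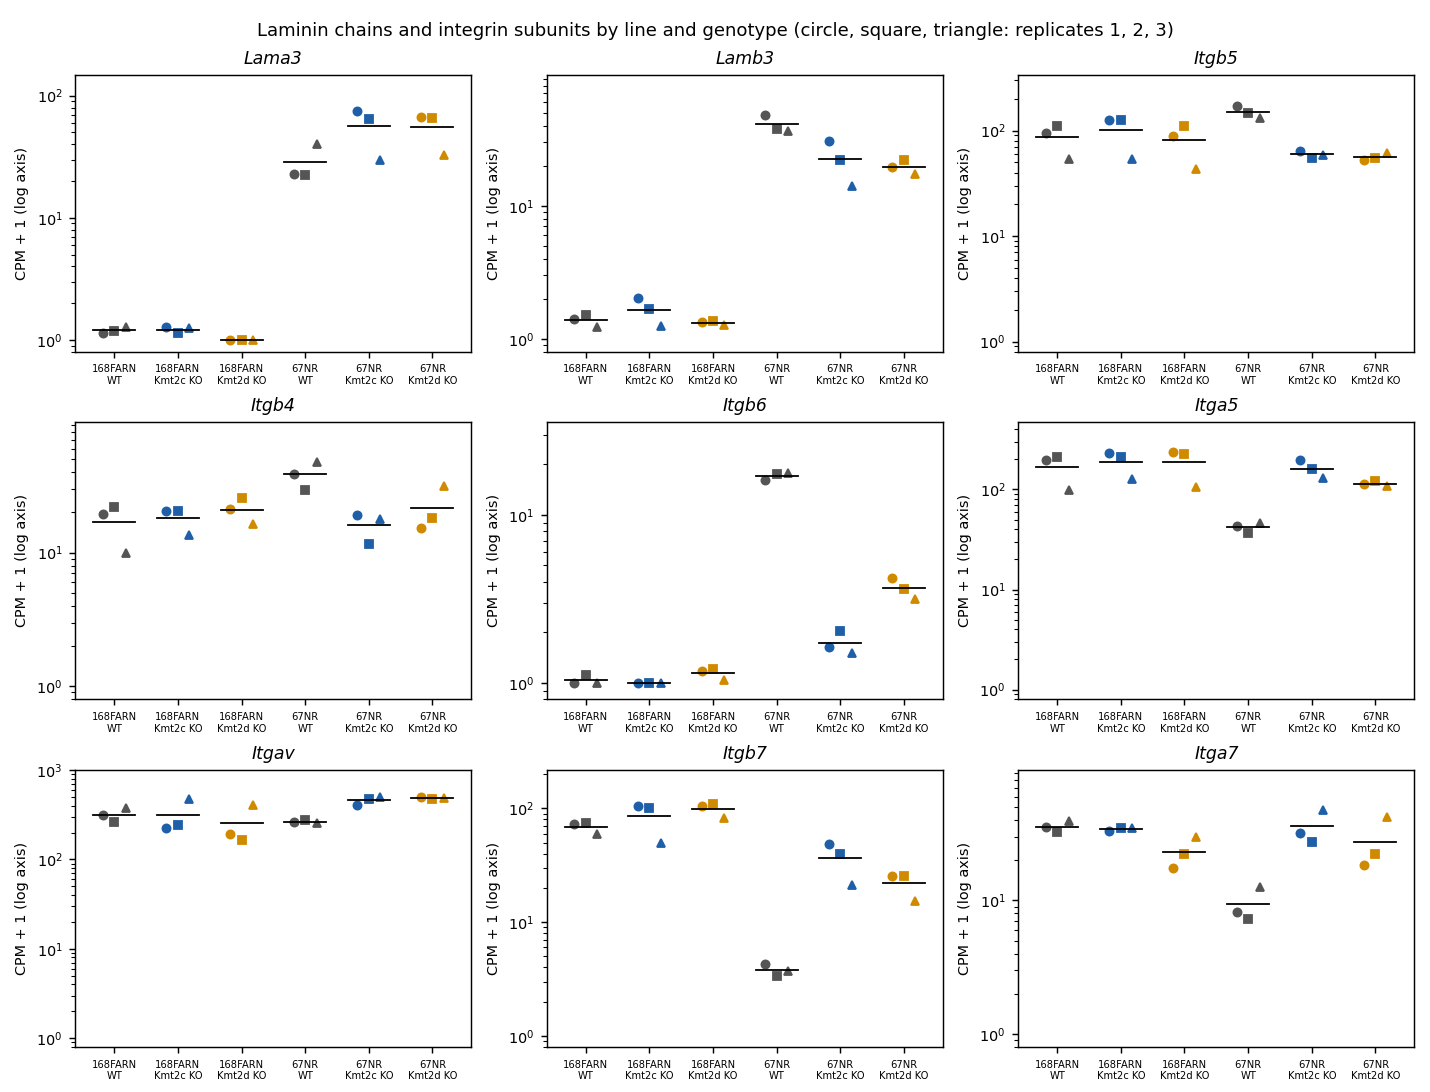
Level of 9 integrin and laminin genes in all 18 libraries (CPM + 1 on a log axis), by line and genotype, with circles, squares and triangles for replicates 1, 2 and 3 and bars at group means. In 67NR *Lamb3*, *Itgb5* and *Itgb6* are lower in all knockout libraries than in WT, while *Itga5*, *Itgav*, *Itgb7* and *Itga7* are higher.

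Marker genes of cell state moved in the same 67NR libraries. The 5 epithelial markers (*Krt8*, *Krt18*, *Epcam*, *Cdh1* and *Cldn4*) summed to 2400 to 3770 CPM for WT, 492 to 766 CPM for *Kmt2c* KO and 873 to 1530 CPM for *Kmt2d* KO. The 5 mesenchymal markers (*Vim*, *Cdh2*, *Zeb1*, *Col1a1* and *S100a4*) summed to 374 to 1870 CPM for WT, 3660 to 7380 CPM for *Kmt2c* KO and 2720 to 6830 CPM for *Kmt2d* KO. All 5 epithelial markers were called lower in *Kmt2c* KO and 4 in *Kmt2d* KO, where *Krt8* was called only under the replicate block. Of the mesenchymal markers, 4 were called higher in each knockout. *Col1a1* was called in neither, and under the replicate block it was called lower in *Kmt2c* KO. Of all genes, 17.9% rose and 17.4% fell in *Kmt2c* KO, and 13.9% rose and 11.6% fell in *Kmt2d* KO. None of the 10 was at 0 in a 67NR group, and the part of these changes in the integrin and laminin values was not tested. The 5 endothelial markers summed to 0.505 to 0.735 CPM for 67NR WT, 1.97 to 2.51 CPM for *Kmt2c* KO and 1.38 to 2.03 CPM for *Kmt2d* KO. Of the 3 tested, *Cdh5* and *Vwf* were called higher in both knockouts.

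The knockouts of 67NR were also compared with each other, to ask whether loss of *Kmt2c* and of *Kmt2d* acts on the same subunits. No subunit was higher in *Kmt2c* KO than in *Kmt2d* KO and 2 of 29 were lower (6.9%), where 0.132% of all genes were higher and 1.28% lower. *Itgb6* was 3.6-fold lower in *Kmt2c* KO (log2 fold change -1.85, SE 0.29, adjusted p = 0.030) and *Itga2* 2.84-fold lower (-1.51, SE 0.31, adjusted p = 0.076), without overlap of the libraries of either gene. The *Itgb6* call ended without *Kmt2c* KO replicate 1 (adjusted p = 0.14) or *Kmt2d* KO replicate 1 (0.11) or 2 (0.10), and the *Itga2* call without any 1 *Kmt2c* KO replicate or *Kmt2d* KO replicate 1 or 2 (0.16 to 0.28). At an unadjusted p under 0.05, 3 subunits were higher and 4 lower, and the share of all genes at that cut is not given here. *Itga5*, at 0.51 (adjusted p = 0.34), did not pass, which does not show that the knockouts act alike on it. Without the libraries numbered 3, *Itga5* was called higher in *Kmt2c* KO (0.60, adjusted p = 0.0024). In that fit *Itgb7* (0.83, adjusted p = 0.00084) and *Lamb2* (0.63, adjusted p = 0.0029) were also called higher, and *Itga8* lower (-0.71, adjusted p = 0.015). Under the replicate block, *Itgb7* was called higher in *Kmt2c* KO (0.72, adjusted p = 0.057).

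In 168FARN few subunits were called. In *Kmt2c* KO against WT, 1 of 22 subunits rose (4.55%) and none fell, where 0.196% of all 12253 genes tested rose and 0.163% fell. *Itga6* was at 19.7, 19 and 21.8 CPM for 168FARN WT, 39, 44.3 and 38.2 CPM for *Kmt2c* KO and 15.1, 16 and 17.7 CPM for *Kmt2d* KO. The 3 groups did not overlap, with *Kmt2c* KO highest. *Itga6* rose in *Kmt2c* KO (log2 fold change 1.01, SE 0.15, adjusted p = 0.054), a call that ended without WT replicate 1 (adjusted p = 0.33), 2 (0.33) or 3 (0.13) or *Kmt2c* KO replicate 1 (0.26) or 2 (0.36), while the log2 fold change stayed between 0.94 and 1.09 in those fits. Under the replicate block its adjusted p was 0.00025. Its partner *Itgb4* was at 18.6, 20.8 and 8.94 CPM for WT and 19.7, 19.5 and 12.5 CPM for *Kmt2c* KO, and the groups overlapped.

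The replicate block called 3 of 22 subunits in 168FARN *Kmt2c* KO (13.6%), where 7.23% of all genes were called. *Itga10*, a collagen receptor subunit of cartilage, was at 22.1, 22.3 and 1.54 CPM for WT, 47.4, 45.2 and 2.43 CPM for *Kmt2c* KO and 61.9, 59.6 and 3.96 CPM for *Kmt2d* KO. Replicate 3 was the lowest of every group, and both knockouts were above WT at each number. Its log2 fold change in *Kmt2c* KO was 1.06 without the block (adjusted p = 1) and 0.97 with it (adjusted p = 0.00045).

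**Figure D4:**
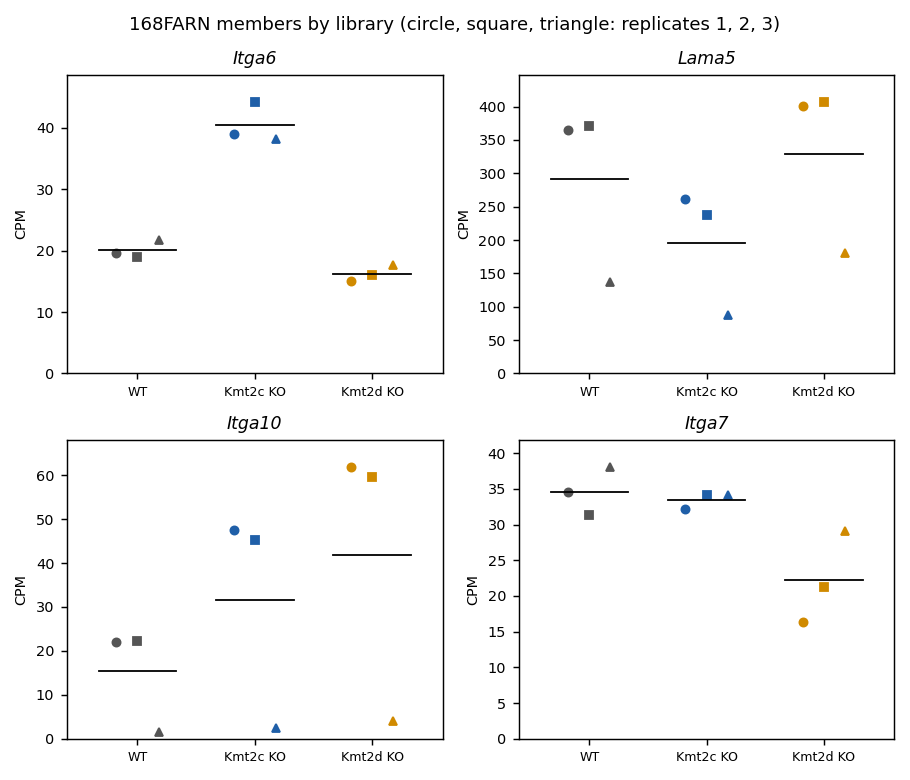
Level in CPM (linear axis from 0) of *Itga6*, *Lama5*, *Itga10* and *Itga7* in the 9 168FARN libraries, with circles, squares and triangles for replicates 1, 2 and 3 and bars at group means. *Itga6* is higher in all *Kmt2c* KO libraries than in WT (38.2 to 44.3 against 19 to 21.8 CPM), while replicate 3 of *Lama5* and *Itga10* lies below replicates 1 and 2 in every genotype.

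No subunit was called by edgeR in 168FARN *Kmt2d* KO against WT, where 0.147% of all genes rose and 0.139% fell. At an unadjusted p under 0.05, 0 subunits were higher and 1 lower, and DESeq2 called 1, *Lama3* (adjusted p = 0.095), which had 22 counts over the WT libraries and none in *Kmt2d* KO, at least 4.46-fold lower against a floor of 3 counts over the group. The shares of all genes at the unadjusted cut and in DESeq2 are not given here. Under the replicate block, 2 of 22 were called (9.09%) where 5.90% of all genes were. These were *Itga10*, with a log2 fold change of 1.45 (adjusted p = 3.4e-05), and *Itga7*. *Itga7* was at 34.5, 31.3 and 38.1 CPM for WT, 32.1, 34.2 and 34.2 CPM for *Kmt2c* KO and 16.4, 21.2 and 29.1 CPM for *Kmt2d* KO. All *Kmt2d* KO libraries were lower than all WT libraries, with log2 fold changes of -0.62 without the block (adjusted p = 0.67) and -0.64 with it (adjusted p = 0.02).

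Set against each other, the 168FARN knockouts differed at *Itga6*, which was higher in *Kmt2c* KO (log2 fold change 1.30, SE 0.15, adjusted p = 0.022), 1 of 22 subunits (4.55%) where 0.131% of all genes were higher and 0.122% lower. The call ended without replicate 1 or 2 of either knockout (adjusted p 0.13 to 0.15), and under the replicate block its adjusted p was 7.2e-05. The block called 5 of 22 subunits (22.7%) where 5.33% of all genes were called. Beside *Itga6* these included *Itga7* (0.60, adjusted p = 0.029) and *Itga8* (adjusted p = 0.057) as higher in *Kmt2c* KO, and *Lama5* (-0.83, adjusted p = 0.00099) as lower. *Itga8*, a subunit of RGD receptors in kidney and muscle, rested on 53 counts in *Kmt2c* KO and 3 in *Kmt2d* KO, a ratio of 10.7 (95% counting interval 3.48 to 53.7). *Lama5* was at 262, 237 and 87 CPM for *Kmt2c* KO and 400, 407 and 180 CPM for *Kmt2d* KO, the latter being higher at each number. In 168FARN the 22 subunits had a median log2 fold change of 0.155 in *Kmt2c* KO and 0.115 in *Kmt2d* KO against WT, beside 0.0102 and 0.011 over all genes.

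Whether the knockout effect differed between the lines was tested as the log2 fold change in 67NR minus that in 168FARN. For *Kmt2c*, 3 of 29 subunits had a higher effect in 67NR (10.3%) and 6 a lower one (20.7%), where 8.49% and 7.55% of all 13882 genes did. For *Kmt2d*, 4 were higher (13.8%) and 3 lower (10.3%), where 6.68% and 3.92% of all genes were. With a block for each line and replicate number, 18 subunits were called for *Kmt2c* and 17 for *Kmt2d*, where 34.6% and 28.4% of all genes were called. *Itgb7*, at 71.8, 73.3 and 58.1 CPM for 168FARN WT against 105, 99.1 and 49.1 CPM for 168FARN *Kmt2c* KO and 103, 109 and 82.1 CPM for 168FARN *Kmt2d* KO, differed by 3.35 (SE 0.46, adjusted p = 0.00015) and 2.38 (adjusted p = 0.0038). *Itga7* differed by 2.11 (adjusted p = 0.0065) and 2.31 (adjusted p = 0.0051), and *Itgb2* by -2.35 (adjusted p = 0.0076) and -2.67 (adjusted p = 0.0049, or -3.40 without 67NR *Kmt2d* KO replicate 3). *Itga5* differed by 1.79 for *Kmt2c* (adjusted p = 0.018). In 168FARN it was at 195, 208 and 96.7 CPM for WT and 228, 209 and 125 CPM for *Kmt2c* KO, with overlapping groups. These differences, and that of *Lama3* for *Kmt2d*, were called in each of the 12 fits that left out 1 library.

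*Lama3* differed between the lines for *Kmt2d* by 7.19 (adjusted p = 0.0087), a value that rests on 0 counts in 168FARN *Kmt2d* KO and is no bound. *Itga6* differed by -0.69 for *Kmt2c* (adjusted p = 0.032) and 0.61 for *Kmt2d* (adjusted p = 0.077). The former call ended without 168FARN WT replicate 1 (adjusted p = 0.13) or 2 (0.14) or 168FARN *Kmt2c* KO replicate 2 (0.16), and the latter without 67NR WT replicate 1 (0.12) or 3 (0.13) or 67NR *Kmt2d* KO replicate 2 (0.14) or 3 (0.12). The remaining calls were less stable. *Itgb6* differed by -4.28 for *Kmt2d* (adjusted p = 0.036), from 12 counts in all 168FARN libraries together, and its call ended without 168FARN *Kmt2d* KO replicate 1 (0.15) or 2 (0.13), while its value became -8.10 without 168FARN WT replicate 2 and -3.51 without replicate 3. *Itgb5* for *Kmt2c* (-1.59, adjusted p = 0.051) lost its call in 7 of 12 fits that left out a library, *Itga1* for *Kmt2d* (-2.28, adjusted p = 0.061) in 8, *Lamb3* for *Kmt2c* (-1.64, adjusted p = 0.085) in 9, and *Itga3* (-1.25, adjusted p = 0.081) and *Itgb4* (-1.40, adjusted p = 0.09) for *Kmt2c* in 10 each. Over the 12 fits the adjusted p reached 0.18 for *Itgb5*, 0.21 for *Itga1*, 0.34 for *Lamb3*, 0.20 for *Itga3* and 0.24 for *Itgb4*, and the *Lamb3* value was -1.06 without 168FARN *Kmt2c* KO replicate 1.

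**Figure D5:**
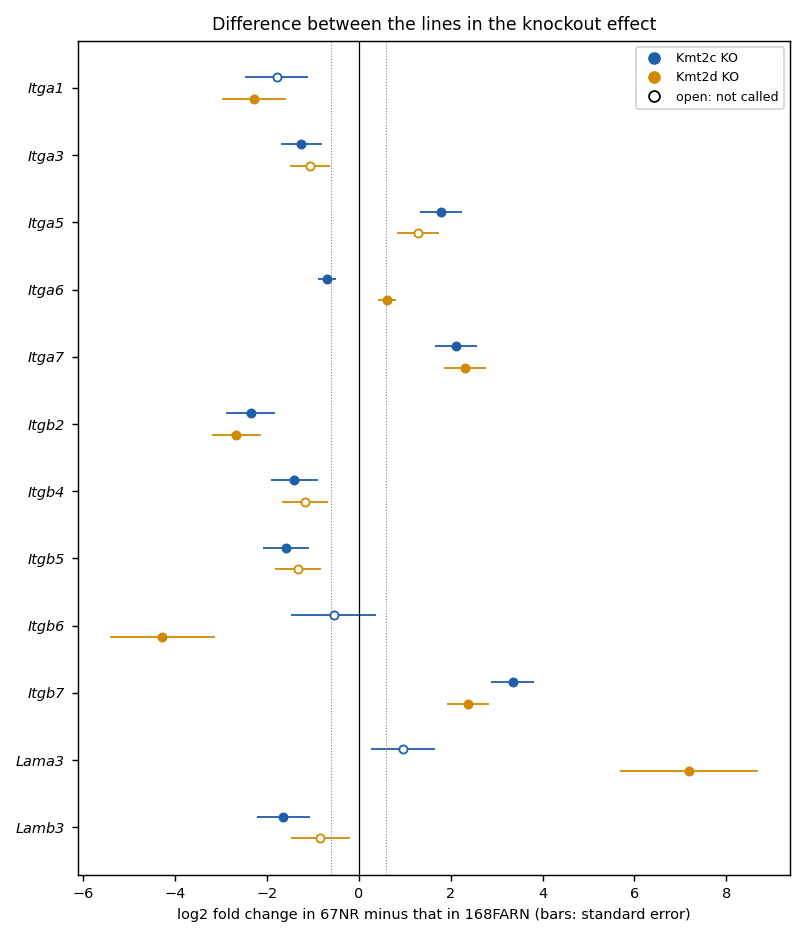
Knockout effect in 67NR minus that in 168FARN (log2, horizontal axis) of the 12 subunits called for either gene, for *Kmt2c* (blue) and *Kmt2d* (orange), with standard errors as bars and filled points for called genes. *Itgb7* lies at 3.35 and 2.38, *Itgb2* at -2.35 and -2.67, and the *Lama3* point for *Kmt2d* rests on a group without counts.

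The lines themselves differed at most subunits without either knockout. In 67NR WT against 168FARN WT, 15 of 29 subunits were higher (51.7%) and 7 lower (24.1%), where 22.3% of all genes were higher and 16.9% lower. The median log2 fold change of the subunits was 0.80, beside 0.035 over all genes. The lines were counted in separate tables, and line and collection cannot be told apart here. Of the hemidesmosome laminin and its receptor, *Lama3* was 132-fold higher in 67NR (0.137, 0.183 and 0.284 CPM for 168FARN WT, log2 fold change 7.04, adjusted p = 2.4e-07) and *Lamb3* higher by 6.70 on the log2 scale (0.41, 0.519 and 0.237 CPM for 168FARN WT, adjusted p = 4.8e-08). *Itga6* was higher by 2.33 on the log2 scale (adjusted p = 8.8e-09) and *Itgb4* 2.33-fold (adjusted p = 0.014). In 168FARN, the epithelial markers *Epcam* and *Cldn4* were at 0 in every library and the 5 epithelial markers summed to 98.9 to 397 CPM.

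Among the receptors, *Itga2* had no count in 168FARN WT and 2604 in 67NR WT, at least 461-fold higher by the floor of 3 counts over the group. By the same floor *Itgb8* was at least 19.3-fold and *Lama4* at least 15.9-fold higher. *Itgb6* was at 0, 0.122 and 0 CPM for 168FARN WT, and its log2 fold change of 8.59 (adjusted p = 2.4e-06) ran from 7.86 without 168FARN WT replicate 3 to 12.45 without replicate 2, which held its only counts in that group. *Itgb3* rested on 3 counts in 168FARN WT against 238 (ratio 42.1, 95% counting interval 14.2 to 206). *Itgb2* was 14.6-fold higher (adjusted p = 2.3e-06), from 5.06, 5.84 and 5.39 CPM for 168FARN WT, and *Itga3* 4.32-fold higher (adjusted p = 8.3e-05), from 113, 129 and 132 CPM. *Itga8* (4.78, or 5.75 without 168FARN WT replicate 1), *Itga1* (2.20) and *Itgb5* (0.80, adjusted p = 0.089) were higher too, the call of *Itgb5* ending without 168FARN WT replicate 1 (0.17) or 3 (0.34) or 67NR WT replicate 1 (0.20) or 2 (0.14).

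Lower in 67NR WT than in 168FARN WT were *Itgb7*, *Itga5*, *Itga7*, *Lamc1*, *Itga2b*, *Itga10* and *Lamc3*. *Itgb7* was 24.2-fold lower (log2 fold change -4.60, adjusted p = 1.3e-07), *Itga7* 4.16-fold (adjusted p = 0.00016) and *Itga5* 4.05-fold (adjusted p = 0.00019), with no overlap of the WT libraries. These are genes that rose in the 67NR knockouts, and since those comparisons share the 67NR WT libraries, the values are only set side by side. *Lamc1* was 1.82-fold lower (adjusted p = 0.0026), from 314, 333 and 216 CPM for 168FARN WT. *Itga2b* (-1.84, adjusted p = 0.03) lost its call without 168FARN WT replicate 2 (0.11), and *Itga10* (-2.94, adjusted p = 0.042), whose libraries overlapped and whose value was -3.54 without 168FARN WT replicate 3, lost it without 168FARN WT replicate 1 (0.10) or 2 (0.10) or 67NR WT replicate 2 (0.10) or 3 (0.12). *Lamc3* rested on 2 counts in 67NR WT against 56 (ratio 52.7, 95% counting interval 13.9 to 446), 1.16 of its CPM being in 168FARN WT replicate 3, and its call ended without that library (0.25) or without 67NR WT replicate 1 (0.15) or 3 (0.11).

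Genes that work with these receptors were counted from lists of integrin adaptors, basement membrane proteins, hemidesmosome proteins and other integrin ligands. The counts stand beside all genes tested in 67NR, of which 17.9% rose and 17.4% fell in *Kmt2c* KO, and 13.9% rose and 11.6% fell in *Kmt2d* KO. Of 26 focal adhesion genes tested in 67NR, 7 rose and 3 fell in *Kmt2c* KO, and 7 rose and 3 fell in *Kmt2d* KO. The kindlins, which bind beta subunit tails to activate integrins, split: *Fermt1*, the epithelial form, fell (log2 fold changes -2.90, adjusted p = 2.7e-05, and -1.66, adjusted p = 9e-04), and *Fermt2*, the widely expressed form, rose (1.18, adjusted p = 0.00029, and 1.08, adjusted p = 0.00085). *Lims2*, an adaptor of integrin-linked kinase, rose (4.86 and 4.39), and *Nedd9*, a scaffold of focal adhesion kinase signalling, fell (-2.41 and -1.93). Of 14 basement membrane genes, 5 rose and 5 fell in *Kmt2c* KO and 3 rose and 4 fell in *Kmt2d* KO. *Nid1*, the nidogen that links laminin to type IV collagen, rose (2.13, adjusted p = 5e-05, and 1.65, adjusted p = 0.00036), whereas *Agrn*, the laminin-binding proteoglycan agrin, fell (-1.85 and -1.64), as did *Bcam*, a receptor of *Lama5* laminins (-3.43, adjusted p = 0.00031, in *Kmt2c* KO).

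Of 6 hemidesmosome genes, 4 rose and 2 fell in *Kmt2c* KO (17.9% and 17.4% of all genes), and 3 rose and 1 fell in *Kmt2d* KO (13.9% and 11.6% of all genes). *Col17a1*, the transmembrane collagen of hemidesmosomes, rose (log2 fold changes 3.84, adjusted p = 0.0025, and 2.96, adjusted p = 0.012), as did *Cd151* (1.38 and 1.04), the tetraspanin that binds laminin-binding integrins, and *Dst* (0.84 and 0.65), the plakin that anchors keratin. *Col7a1*, the anchoring fibril collagen, fell (-2.09, adjusted p = 0.00085, and -1.73, adjusted p = 0.0037). Of 16 other ligands, 1 rose and 8 fell in each knockout, beside the same shares of all genes. *Vcam1* (-2.63, adjusted p = 7.3e-06), *Npnt* (-3.10, adjusted p = 2.9e-05) and *Cdh1* (-2.80, adjusted p = 1.1e-05) fell in *Kmt2c* KO. *Postn*, encoding periostin, was at 74.8 ± 17.7 CPM for 67NR WT and 0.0557 CPM for *Kmt2c* KO (SD, n = 3). In *Kmt2d* KO, *Icam1* fell (-4.21, adjusted p = 6.6e-05) and *Tnc*, encoding tenascin-C, rose (2.97, adjusted p = 0.00042). In 168FARN, edgeR without the block called 1 gene of the 4 lists in *Kmt2c* KO, *Col3a1*, from 2.23 ± 0.414 CPM for WT to 0.329 ± 0.0978 CPM (SD, n = 3; log2 fold change -2.74, adjusted p = 0.03), and 0 in *Kmt2d* KO. These counts were out of 52 list genes tested, where 0.359% and 0.286% of all genes were called. The replicate block called 8 and 7 of the 52, where 7.23% and 5.90% of all genes were called. DESeq2 called 3 and 1 of 64 tested, and its share over all genes is not given here. Without 168FARN WT replicate 1 or 2 or *Kmt2c* KO replicate 1 or 2 the edgeR *Kmt2c* count was 0.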

How the data were processed

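Polyadenylated RNA of 18 samples, 3 for each of 6 groups of line and genotype, was sequenced, and the deposited values are raw read counts per gene symbol. Per the study's methods, the authors aligned reads with STAR in the VIPER pipeline to mm9; the STAR version, annotation and strand setting are not given in the sources used here. The deposited symbols are in capitals and are printed here in mouse case. All columns were matched to samples (0 unmatched).

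Each line was fitted in R 4.3.3 with edgeR 4.0.16 (limma 3.58.1): filterByExpr, TMM scaling within the line, and the quasi-likelihood test with genotype as the only factor, as in the study's design. Contrasts between lines used all 18 libraries. Printed CPM values were scaled by TMM over all 18 libraries. The thresholds for a call were 0.1 for the adjusted p and ±0.6 for the log2 fold change. A group without counts was given a floor of 3 counts over the group, and intervals (95%) and floors cover counting error only. The edgeR fits without the block were also run on simulated counts with the same spread setting for every gene and no replicate effect. That run does not cover deviations shared by replicate number, and no conclusion is drawn from it.

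Samples with the same replicate number deviated together from their group means (correlation 0.65 to 0.90 over 9 pairs in 168FARN and 0.35 to 0.72 over 9 pairs in 67NR). Samples with different numbers gave -0.82 to 0.73 over 18 pairs in 168FARN and -0.6 to 0.52 over 18 pairs in 67NR, so the ranges overlap. The numbers were taken as pairs, and a replicate block was fitted as an alternative only. Other alternatives were DESeq2 1.42.0, its size factors in edgeR, no filter, only the 6 compared libraries, another threshold, and leaving out replicates 3 or each library.

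Subunits called in a comparison, and their chain partners, are given by library, and beyond 12 called those with the smallest p-values; at most 4 genes of each pathway list are named. The family and the lists were chosen for study with earlier results of these data known, while the genes within the family were taken by name alone. Positions are mm9 from the annotation and promoter windows are RefSeq on GRCm38.p6. Figures were drawn with matplotlib 3.10.9 in Python 3.11.15. A few genes are not reported here by name; counts over the family and over all genes include them.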

Additional observations from a re-analysis of the deposited data

Results flagged for a closer look

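The knockout effect differed between 67NR and 168FARN, by the test of the difference itself in edgeR, for 16 combinations of subunit and knocked-out gene. These were 31% of the 29 subunits tested for *Kmt2c* and 24.1% for *Kmt2d*, where 16% and 10.6% of all genes were called. Values are the log2 fold change in 67NR minus that in 168FARN. For *Kmt2c* they were 3.35 for *Itgb7* (adjusted p = 0.00015), 2.11 for *Itga7* (0.0065), 1.79 for *Itga5* (0.018), -0.69 for *Itga6* (0.032), -1.25 for *Itga3* (0.081), -1.40 for *Itgb4* (0.09), -1.59 for *Itgb5* (0.051), -1.64 for *Lamb3* (0.085) and -2.35 for *Itgb2* (0.0076). For *Kmt2d* they were 7.19 for *Lama3* (0.0087), 2.38 for *Itgb7* (0.0038), 2.31 for *Itga7* (0.0051), 0.61 for *Itga6* (0.077), -2.28 for *Itga1* (0.061), -2.67 for *Itgb2* (0.0049) and -4.28 for *Itgb6* (0.036). The *Lama3* value rests on 0 counts in 168FARN *Kmt2d* KO and is no bound. Only *Itgb7*, *Itga7* and *Itgb2*, with *Itga5* for *Kmt2c* and *Lama3* for *Kmt2d*, kept their calls whichever 1 library was left out.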

How the results depend on the processing

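In 67NR against WT, the count of subunits called stayed within 1.5 times of 21 for *Kmt2c* KO (15 to 24) and of 18 for *Kmt2d* KO (14 to 21) under every alternative run, as did the 22 of 67NR WT against 168FARN WT (20 to 24). The 24 between the WT groups came from the replicate block. There the lines are set against each other at replicate number 1, so that count is not a check of the same difference. The small counts moved more. With the replicate block, subunits called went from 1 to 3 in 168FARN *Kmt2c* KO against WT, from 0 to 2 in 168FARN *Kmt2d* KO against WT, from 1 to 5 between the 168FARN knockouts, and from 9 to 18 (*Kmt2c*) and 7 to 17 (*Kmt2d*) for the difference between lines. Without the libraries numbered 3 the same counts were 3, 3, 5, 17 and 16, and between the 67NR knockouts 6 in place of 2. For this and the other alternatives of this section apart from the block, the share of all genes called is not given here. Their moves are therefore not read as particular to the subunits or pathway genes. With only the 6 compared libraries no subunit was called in 168FARN *Kmt2c* KO (0), between the 168FARN knockouts (0) or between the 67NR knockouts (0), and without the filter 0 were called in 168FARN *Kmt2c* KO. With thresholds of 0.05 for the adjusted p and ±0.5 for the log2 fold change, the counts were 0 in 168FARN *Kmt2c* KO, 1 between the 67NR knockouts and 5 for the *Kmt2c* difference between lines. DESeq2 called 1 in 168FARN *Kmt2d* KO and 2 between the 168FARN knockouts. Leaving out 1 library gave 0 to 1 in 168FARN *Kmt2c* KO, 0 to 1 between the 168FARN knockouts, 0 to 2 between the 67NR knockouts, and 4 to 9 (*Kmt2c*) and 5 to 10 (*Kmt2d*) for the difference between lines. Pathway genes called in 168FARN went from 1 to 8 (*Kmt2c* KO) and from 0 to 7 (*Kmt2d* KO) of 52 tested with the block, where 7.23% and 5.90% of all genes were called. They went to 11 and 10 without the libraries numbered 3, to 3 and 1 with DESeq2, and to 0 for *Kmt2c* KO with only 6 libraries (0 to 1 when 1 library was left out). Fits with fewer libraries have fewer degrees of freedom, and the cause of the other moves was not tested. Of the fold changes of single subunits under an alternative, 1367 kept direction and side of the threshold, 150 fell below it, 74 passed it and 0 reversed. DESeq2's size factors moved the median of all genes by at most 0.022 (log2). In 168FARN, where totals were as low as 14359760, subunits under about 1 CPM rest on few counts.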
